A study of Mus musculus with 8 samples.

Results

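The steroid hormone receptor genes described here are Pgr (progesterone receptor), Esr1 and Esr2 (estrogen receptors α and β), Nr3c1 (glucocorticoid receptor) and Nr3c2 (mineralocorticoid receptor). They were taken by symbol from the table of raw counts and are 5 of its 26667 genes. The set was chosen with the KPH2 against KP difference of these tumours already known, so that difference is given for the receptors as a description, and the counts of receptors called are not evidence. RNA sequencing (RNA-seq) was carried out on undifferentiated pleomorphic sarcomas (UPS), soft tissue tumours of mesenchymal appearance, which had been induced in the hind limb of mice. KP tumours (n = 4, KP 5 to KP 8) carried Trp53 fl/fl alleles, and KPH2 tumours (n = 4, KPH2 1 to KPH2 4) carried the same alleles together with Epas1 fl/fl. Epas1 encodes HIF-2α, an oxygen-regulated transcription factor. All mice were of a mixed 129/C57BL/6 background, were of both sexes and at least 8 weeks old, and received an adenovirus encoding Cre (Ad-Cre) in the right limb muscle. Recombination takes place only in cells that the virus infects, and which cells of a tumour these were was not measured here. RNA came from paraffin sections and was depleted of ribosomal RNA. The labels give 1 library per tumour and do not say whether each tumour came from a different mouse.

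Steroid receptors are transcription factors that are switched on by lipid-soluble hormones. Without hormone the glucocorticoid, mineralocorticoid and progesterone receptors are held by HSP90 and its partner chaperones, and with hormone they bind DNA as dimers and recruit coactivators such as the NCOA proteins. The glucocorticoid receptor is made in nearly every cell, including muscle and fibroblasts, where it drives atrophy genes and restrains inflammation. The estrogen receptors act in the reproductive tract, bone and connective tissue, and the progesterone receptor is a classical estrogen-induced gene of the uterus and breast. The mineralocorticoid receptor is known best for salt retention in the kidney and also binds glucocorticoids, unless the enzyme HSD11B2 inactivates them.

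The promoters of Pgr and Esr2 are shown because these were the receptor genes with the largest fitted differences between the genotypes. Each run holds 300 bases of RefSeq sequence (GRCm38.p6), from 250 bases before the start site to 50 bases after it, 5′ to 3′ on the strand of the gene. Capitals mark the HIF core motif, ACGTG or GCGTG on either strand.

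Pgr, chr9:8899583-8899882, + strand: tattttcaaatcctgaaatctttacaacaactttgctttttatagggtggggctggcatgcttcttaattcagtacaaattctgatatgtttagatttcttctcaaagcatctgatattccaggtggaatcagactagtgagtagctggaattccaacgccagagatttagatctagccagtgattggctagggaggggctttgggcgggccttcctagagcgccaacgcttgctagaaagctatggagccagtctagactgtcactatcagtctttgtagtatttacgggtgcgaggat

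Esr2, chr12:76177210-76177509, - strand: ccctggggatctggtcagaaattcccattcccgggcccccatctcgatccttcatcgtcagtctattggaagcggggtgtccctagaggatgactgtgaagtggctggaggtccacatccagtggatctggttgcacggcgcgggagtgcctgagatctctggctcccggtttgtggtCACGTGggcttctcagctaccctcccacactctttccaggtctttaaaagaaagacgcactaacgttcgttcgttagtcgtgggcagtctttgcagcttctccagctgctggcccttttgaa

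The Pgr window held neither form of the core. This window begins downstream of the Pgr gene start given below, base 8898900, and the sequence around that base was not scanned. In the Esr2 window ACGTG was found on both strands at positions -72 and -71 from the start site, overlapping within the palindrome in capitals. The estrogen half-site GGTCA was found in it at -238 and -75, the latter overlapping the HIF core. Of the other receptor promoters, that of Nr3c2 held GCGTG at -213 and GGTCA at -135 and -49. The Nr3c2 window, 76902080 to 76902379, likewise lies downstream of its gene start at 76898083, which was not scanned. Esr1 has 2 promoters in this set, the first with GGTCA at 16 and the second with GCGTG at 5. The full estrogen palindrome, GGTCA and its inverse 3 bases apart, and the glucocorticoid and progesterone core ACANNNTGT were found in none of these 5 windows. Over 32851 mouse promoters of the same length, 43.8% held at least 1 HIF core, 40.5% held GGTCA, 0.07% held the estrogen palindrome and 6.85% held ACANNNTGT, so the short motifs are common. A match is a description of the sequence, and whether a factor binds there was not measured.

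The libraries summed to between 6463221 and 13155510 counts. KPH2 1 was kept apart, since the study's test used 4 KP and 3 knockout tumours after 1 knockout was left out as a technical outlier, and KPH2 1 is the tumour that the authors' 7-tumour table lacks. Levels are counts per 1000000 counts of the TMM-scaled library (CPM), where TMM is a normalization for library composition. Epas1, the targeted gene, was counted at 59.6, 82.2, 85.5 and 85.1 CPM in KP 5 to KP 8 and at 32.0, 54.2, 37.8 and 42.4 CPM in KPH2 1 to KPH2 4. Every KPH2 tumour lay below every KP tumour, and the mean of 78.1 ± 12.4 CPM (SD, n = 4) compared with 44.8 ± 8.44 CPM (SD, n = 3) in KPH2 2 to KPH2 4. The log2 fold change of -0.81 ± 0.19 (SE) missed the threshold in edgeR's quasi-likelihood test (adjusted p = 0.0742) and passed it in DESeq2 (adjusted p = 0.0118). These counts cover the whole gene, so exons outside the deleted part contribute.

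Pgr and Esr2 had their highest values in KPH2 tumours, Nr3c1 was lower in KPH2 tumours, and Esr1 and Nr3c2 lay in overlapping ranges. Over KP 5 to KP 8 and KPH2 2 to KPH2 4, 4 of the 5 genes passed the low-count filter of edgeR, Esr2 being the exception. None passed an adjusted p of 0.05 in edgeR (0 of 4, with 2 at an unadjusted p under 0.05, Pgr and Nr3c1), where 1.96% of the 14867 genes tested were called (1.24% higher and 0.72% lower in KPH2) and 17.8% had such an unadjusted p. DESeq2 called 2 of the 5, again Pgr and Nr3c1, where it called 6.97% of 16733 genes. Over all 8 tumours edgeR called 0 of the 3 that passed the filter, with 1 at an unadjusted p under 0.05 (14.7% of genes), and edgeR called 0.00675% of 14805 genes. DESeq2 called 0 of the 5 over all 8 tumours, and 3.91% of 16398 genes. The KPH2 2 to KPH2 4 values lay wholly outside the KP range for Esr2 and Nr3c1, 2 of the 5 receptors. Of the 4 that passed the filter this was 1, Nr3c1, against 16.8% of the genes that passed it (9.01% higher and 7.83% lower). Esr2 and Nr3c1 remained apart with KPH2 1 included, of which Nr3c1 was 1 of the 3 that passed the filter, against 8.15% of the genes that passed it over 8 tumours. As the receptors were chosen on this contrast, nothing is read from these counts.

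**Figure D1:**
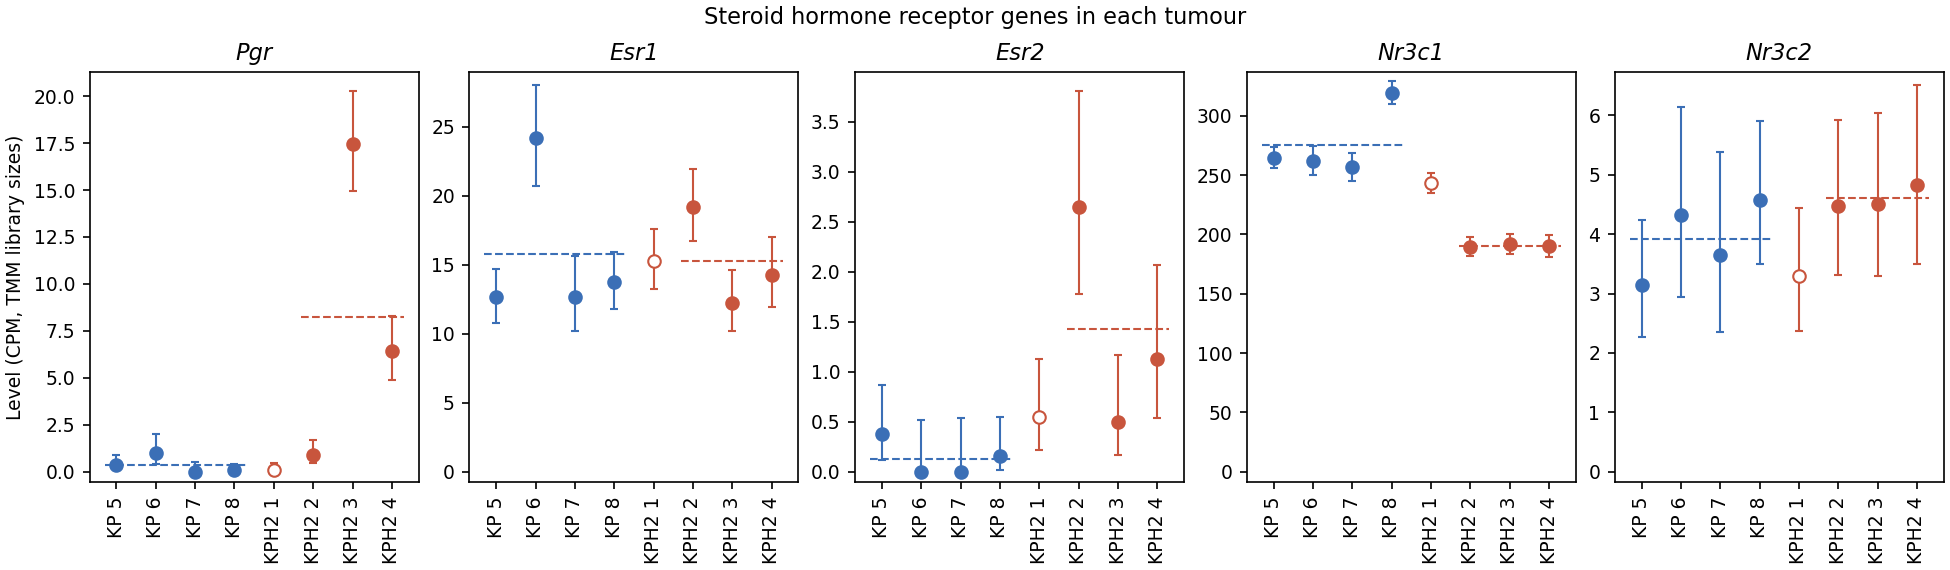
Level (CPM) of each receptor gene in each tumour, with 95% Poisson intervals of the count, KP in blue, KPH2 in red, KPH2 1 as an open symbol and dashed lines at the means of KP 5 to KP 8 and KPH2 2 to KPH2 4. Each panel has its own axis, and Pgr reaches 17.5 CPM in KPH2 3 while Nr3c1 runs from 189.6 to 319 CPM.

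Pgr (Entrez Gene 18667, GRCm38 chromosome 9, 8898900 to 8968611) had 5, 7, 0 and 1 counts in KP 5, KP 6, KP 7 and KP 8, or 0.374, 0.978, 0 and 0.0764 CPM. In KPH2 1 it had 1 count (0.0784 CPM), and in KPH2 2, KPH2 3 and KPH2 4 it had 10, 174 and 57 counts, or 0.914, 17.5 and 6.41 CPM. KPH2 3 and KPH2 4 were thus far above every KP tumour, while KPH2 2 lay just below KP 6 and KPH2 1 lay among the KP tumours. The 0 counts of KP 7 allow up to 0.437 CPM (3 counts), and the upper end of their 95% Poisson interval was 0.538 CPM. The 95% Poisson interval of KPH2 2 ran from 0.438 to 1.68 CPM and that of KP 6 from 0.393 to 2.02 CPM, and such intervals cover counting error only. KPH2 3 alone held 68.2% of the 255 counts of Pgr in the 8 tumours. The mean was 0.357 ± 0.444 CPM across the KP tumours (SD, n = 4) and 8.26 ± 8.43 CPM (SD, n = 3) in KPH2 2 to KPH2 4, so the SD of the KPH2 tumours was as large as their mean. The fitted log2 fold change was 4.57 ± 1.13 (SE) over the 7 tumours. Without KPH2 3 it was 3.38, and with KPH2 1 added, where the gene no longer passed the low-count filter, it was 4.15. In these bulk samples, more cells with the transcript and more transcript per cell cannot be told apart.

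The summed level of skeletal muscle markers was higher in KPH2 2 to KPH2 4 than in every KP tumour, but lowest of all in KPH2 1. Over 30 genes it was 1839.8 to 3431 CPM in KP, 12916, 19879.7 and 4368 CPM in KPH2 2, KPH2 3 and KPH2 4, and 1517 CPM in KPH2 1. Of the 30 markers, 30 had a positive fitted difference over the 7 tumours. In edgeR 3 of them were called over the 7 tumours (1.96% of all genes) and 0 over all 8. KPH2 3 was the highest tumour for both these markers and Pgr. KPH2 2 had the second highest muscle sum and a Pgr level within the KP range, and KPH2 4 had the second highest Pgr level with a muscle sum nearer to KP. With a muscle score as a covariate the fitted difference of Pgr was 3.94. Whether the muscle content has a part in the Pgr values was not tested beyond this covariate.

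Esr2 (Entrez Gene 13983, chromosome 12, 76120419 to 76177259) was at the limit of detection in KP tumours. It had 5, 0, 0 and 2 counts in KP 5 to KP 8, or 0.374, 0, 0 and 0.153 CPM. In KPH2 1 to KPH2 4 it had 7, 29, 5 and 10 counts, or 0.548, 2.65, 0.502 and 1.12 CPM. All 4 KPH2 tumours, KPH2 1 included, lay above all 4 KP tumours, and KPH2 2 held 29 of the 58 counts. KP 5 and KPH2 3 had 5 counts each, and their intervals of 0.121 to 0.872 and 0.163 to 1.17 CPM overlapped. The mean was 0.132 ± 0.177 CPM across the KP tumours (SD, n = 4) and 1.43 ± 1.11 CPM (SD, n = 3) in KPH2 2 to KPH2 4. Fitted without the low-count filter, the log2 fold change was 3.07 ± 0.87 (SE), and 2.83 with KPH2 1. It was 2.25 without KPH2 2 and 4.12 without KP 5.

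The summed level of 10 epithelial markers was also higher in every KPH2 tumour than in any KP tumour, at 4.08 to 7.47 CPM in KP, 481, 50.5 and 524 CPM in KPH2 2 to KPH2 4 and 57.4 CPM in KPH2 1. Only 3 of the 10 markers passed the low-count filter (Krt8, Krt18 and Cdh1), all with a positive difference over the 7 tumours. Krt8 and Krt18, keratins of simple epithelia, held most of the sum, with means of 185 ± 155 and 158 ± 102 CPM (SD, n = 3) in KPH2 2 to KPH2 4. In KPH2 1 the sum was nearly all Krt18 (55.1 CPM). Single markers did not all follow the sum. Cdh1 was 0.157 CPM in KPH2 1 against a mean of 1.25 ± 0.733 CPM across the KP tumours (SD, n = 4), and Krt19 and Esrp1 were at 0 in KPH2 1 and KPH2 3 but not in KP 5 or KP 6. Krt5 and Krt14, keratins of basal epithelium, had 0 counts in all 8 tumours. The part of epithelial cells in the Esr2 values was not tested.

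**Figure D2:**
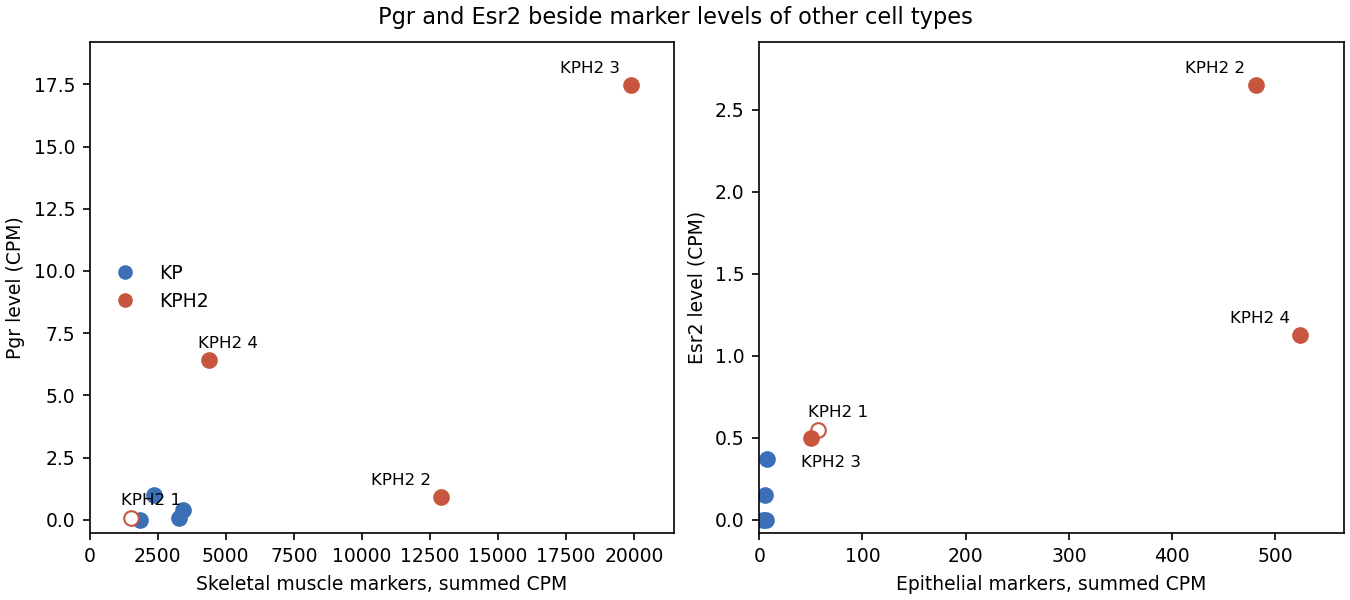
Left, Pgr level (CPM) against the summed level of 30 skeletal muscle markers (CPM) in each tumour, and right, Esr2 level (CPM) against the summed level of 10 epithelial markers (CPM), with KP in blue, KPH2 in red and KPH2 1 as an open symbol. KPH2 3 stands highest on both axes of the left panel, and KPH2 2 combines a muscle sum of 12916 CPM with a Pgr level of 0.914 CPM.

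Esr1 (Entrez Gene 13982, chromosome 10, 4611989 to 5005633), which mediates most estrogen responses of connective tissue, was detected well in every tumour. It stood at 12.6, 24.2, 12.7 and 13.8 CPM in KP 5 to KP 8 and at 15.3, 19.2, 12.2 and 14.3 CPM in KPH2 1 to KPH2 4. KP 6 was the highest tumour and KPH2 3 the lowest, and the groups overlapped throughout. The mean was 15.8 ± 5.60 CPM across the KP tumours (SD, n = 4) and 15.2 ± 3.57 CPM (SD, n = 3) in KPH2 2 to KPH2 4, a log2 fold change of -0.06 ± 0.29 (SE). The sign of this small value turned when KP 6 was left out (0.22), when KPH2 3 was left out (0.07) and with the muscle score as a covariate (0.28).

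Nr3c1 (Entrez Gene 14815, chromosome 18, 39410545 to 39519421) was the receptor with the most counts, between 1690 and 4182 per tumour. Its level was 265, 262, 256.5 and 319 CPM in KP 5 to KP 8, 243 CPM in KPH2 1, and 189.6, 192 and 190.1 CPM in KPH2 2 to KPH2 4. Every KPH2 tumour lay below every KP tumour, and the 3 KPH2 tumours of the study's test lay within their counting intervals of each other. The mean was 276 ± 29.4 CPM across the KP tumours (SD, n = 4) and 190.5 ± 1.22 CPM (SD, n = 3) in KPH2 2 to KPH2 4. The fitted log2 fold change was -0.55 ± 0.13 (SE), and -0.44 ± 0.14 (SE) with KPH2 1 included. It ranged from -0.57 to -0.48 when any 1 of the 7 tumours was left out, and was -0.60 with the muscle score as a covariate. Fibroblast markers summed to 16690.5 to 24759 CPM in KP, 8860.1 to 18849 CPM in KPH2 2 to KPH2 4 and 10737 CPM in KPH2 1, with 1 of 12 positive. Macrophage markers summed to 2534 to 4526 CPM in KP, 1893 to 2783 CPM in KPH2 2 to KPH2 4 and 2317 CPM in KPH2 1, also with 1 of 12 positive. Endothelial markers summed to 396 to 731 CPM in KP, 408 to 421 CPM in KPH2 2 to KPH2 4 and 295 CPM in KPH2 1, with 2 of 12 positive. None of the markers of these lists was at 0 counts in all tumours, and the part of these cells in the values of Nr3c1, or of Epas1 above, was not tested.

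Nr3c2 (Entrez Gene 110784, chromosome 8, 76898083 to 77245012) was low and even. It stood at 3.14, 4.33, 3.65 and 4.58 CPM in KP 5 to KP 8 and at 3.29, 4.48, 4.52 and 4.84 CPM in KPH2 1 to KPH2 4. KPH2 1 lay near the lowest KP tumour, and KPH2 2 and KPH2 3 fell within the KP range. The mean was 3.92 ± 0.657 CPM across the KP tumours (SD, n = 4) and 4.61 ± 0.197 CPM (SD, n = 3) in KPH2 2 to KPH2 4, a log2 fold change of 0.22 ± 0.26 (SE). It was 0.12 over all 8 tumours, 0.13 without KP 5 and 0.36 with the muscle covariate. Of the 5 receptors only Nr3c2 shares exon sequence with another counted gene, Gm10649 on the opposite strand, over 247 bases, and the strand setting of the counting is not given in the sources used here. Its values are uncertain to that extent.

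**Figure D3:**
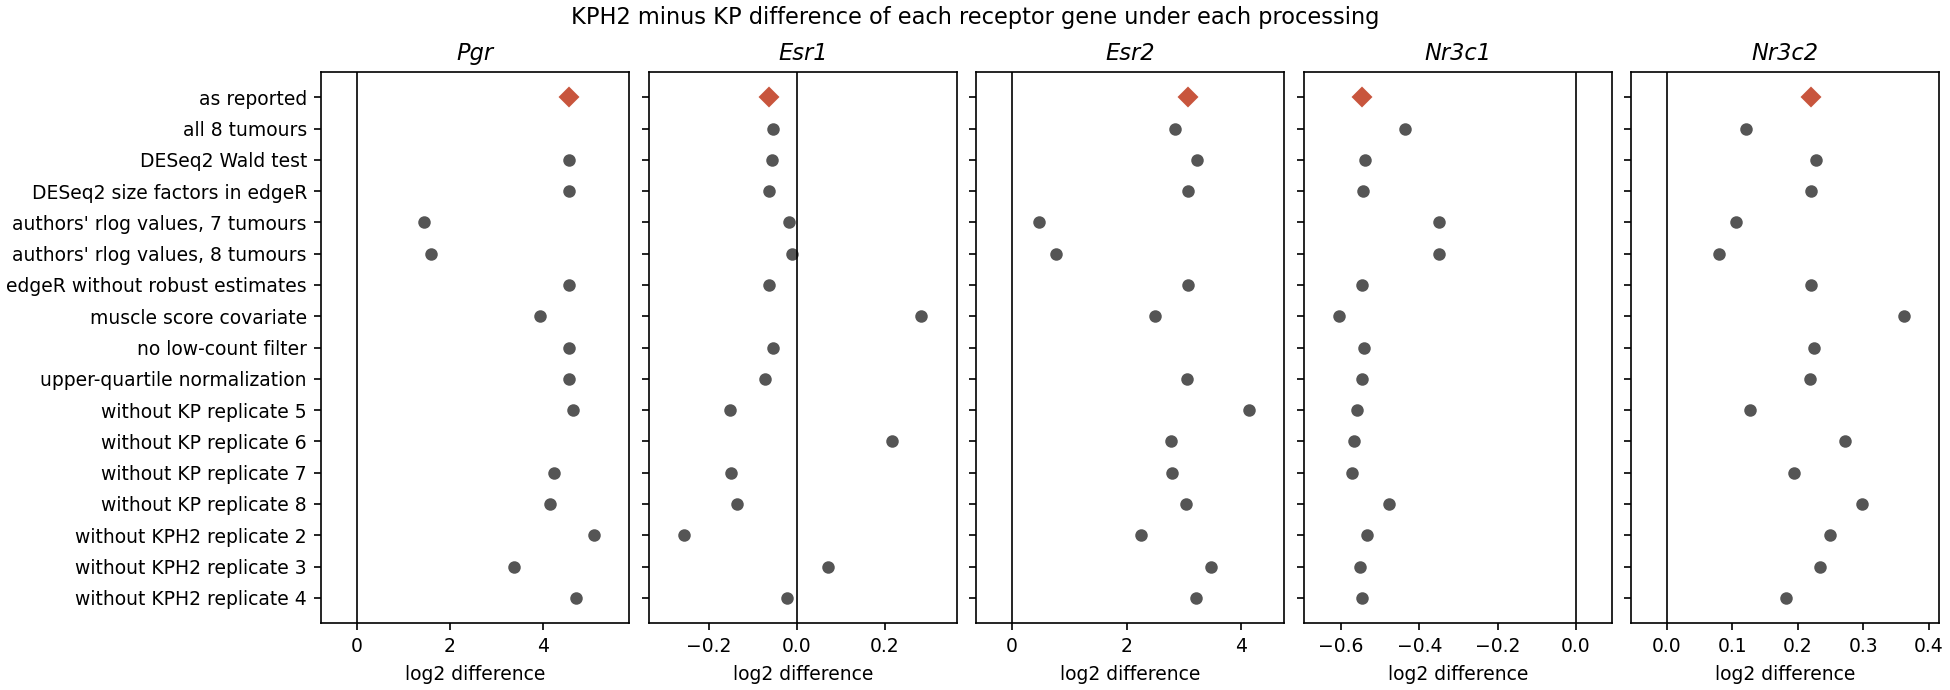
log2 difference (KPH2 minus KP) of each receptor gene as reported (red diamond) and under each other processing (grey points), each panel with its own axis and a line at 0. Pgr, Esr2, Nr3c1 and Nr3c2 keep their sign throughout, while Esr1 lies on either side of 0, and the authors' rlog values give smaller differences for Pgr (1.45 and 1.59) and Esr2 (0.46 and 0.76).

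To compare the receptors with each other, levels were divided by exon length and are CPM per kb. Nr3c1 stood far above the others, with a lowest, median and highest tumour of 30.0, 39.5 and 50.5 CPM per kb. Esr1 followed at 1.58, 1.81 and 3.12, Nr3c2 at 0.553, 0.776 and 0.852, Esr2 at 0, 0.131 and 0.793, and Pgr at 0, 0.0935 and 2.54 CPM per kb. Nr3c1 exceeded Esr1 in 8 of 8 tumours, by 12.1 to 28.5 times. Esr1 in turn exceeded Nr3c2 in 8 of 8 tumours, by 1.98 to 4.08 times. With the exons of all annotated transcripts as the length, which lengthens Esr1 from 7754 to 13661 bases, both orders held in 8 of 8 tumours, at 17.6 to 41.3 times and 1.28 to 2.64 times. The order of the lower genes varied with the tumour. Nr3c2 was above Esr2 in 7 of 8 tumours and above Pgr in 6 of 8, the exceptions for Pgr being KPH2 3 and KPH2 4. In KPH2 3 Pgr also exceeded Esr1, at 2.54 against 1.58 CPM per kb. Esr2 was above Pgr in 4 tumours and below it in 3, with both at 0 in KP 7, so these neighbours were not separated beyond their spread. Nr3c1 made up between 85.7% and 95.04% (median 92.3%) of the summed level of the 5 receptors.

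**Figure D4:**
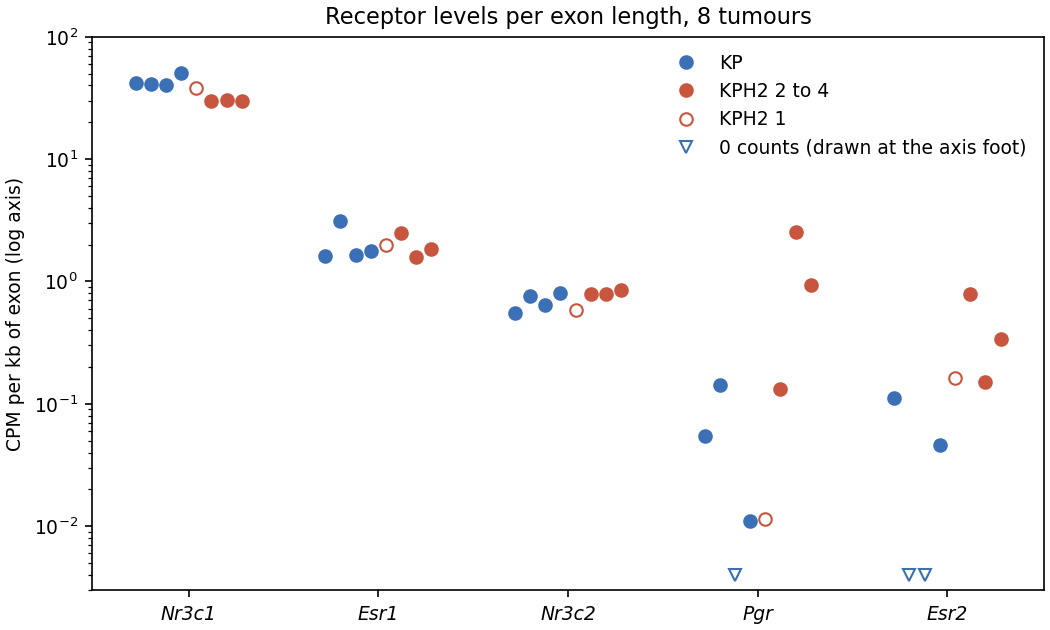
CPM per kb of exon for each receptor gene on a log axis, 1 point per tumour, KP in blue, KPH2 in red, KPH2 1 as an open circle, and tumours with 0 counts as open triangles at the foot of the axis. Nr3c1 lies at 30.0 to 50.5 CPM per kb in all 8 tumours, whereas Pgr spans from 0 to 2.54 CPM per kb.

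The genes around the receptors were described with lists that follow the pathway: chaperones, coregulators, partner factors, steroid enzymes, other receptors for these hormones, and genes that each hormone is known to induce. Across the lists, 148 genes were tested, of which 2 rose, 1 fell, and 30 had an unadjusted p under 0.05. The share called, 2.03%, was close to the 1.96% over all genes, and DESeq2 called 12 (8.11%, against its 6.97% of all genes). Over all 8 tumours edgeR called 0 of the 148, with 27 at an unadjusted p under 0.05. List medians below stand beside a median log2 fold change of -0.02 over all genes tested. Counts at an unadjusted p under 0.05 stand beside 17.8% of all genes over the 7 tumours and 14.7% over all 8.

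None of the 16 receptor chaperones passed the test in edgeR (3 at an unadjusted p under 0.05, 1 called by DESeq2), with a median log2 fold change of 0.14. Hsp90ab1, the constitutive HSP90 that holds the unliganded receptors, had 1135 ± 118 CPM across the KP tumours (SD, n = 4) and 1752 ± 274 CPM (SD, n = 3) in KPH2 2 to KPH2 4, and 1812 CPM in KPH2 1. Its difference of 0.61 ± 0.17 (SE) missed the threshold in edgeR (adjusted p = 0.119) and was the 1 that DESeq2 called (adjusted p = 0.0184). The cochaperones did not pass either, with log2 fold changes of -0.16 ± 0.22 (SE) for Ptges3 (p23) and 0.14 ± 0.30 (SE) for Fkbp5, which dampens the glucocorticoid receptor. Hspa8 and Hspa4, members of the HSP70 family, had means of 904 and 300.3 CPM over the 7 tumours.

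Coactivators and corepressors gave 0 of 24 called in edgeR and 0 in DESeq2, with 5 at an unadjusted p under 0.05 and a median of 0.08. The steroid receptor coactivators Ncoa1, Ncoa2 and Ncoa3 had log2 fold changes of -0.09, 0.06 and -0.32, the corepressor Ncor1 of 0.19, and Nrip1, which represses estrogen receptor activity, of 0.64 (adjusted p = 0.887, 0.861, 0.208, 0.480 and 0.234, edgeR). The RNA helicases Ddx5 and Ddx17 and the histone methyltransferase Nsd1 were present at 627, 703 and 533 CPM over the 7 tumours.

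Of the pioneer and partner factors, 17 of 21 were tested and 0 were called in edgeR, with 3 at an unadjusted p under 0.05, 2 called by DESeq2 and a median of 0.07. These 2, Cebpd and Stat5b, were named after their values were seen and had adjusted p-values of 0.160 and 0.121 in edgeR. Both had lower means in KPH2 2 to KPH2 4, with log2 fold changes of -1.67 and -0.79. Foxa1, the pioneer factor of estrogen receptor sites in breast epithelium, had 2 counts in the 8 tumours together and was not tested. Gata3, which acts beside it there, stood at 1.28 ± 0.651 CPM across the KP tumours (SD, n = 4) and 1.51 ± 0.520 CPM (SD, n = 3) in KPH2 2 to KPH2 4 (adjusted p = 0.819, edgeR). Sp1, Runx1 and Stat3 had means of 251, 246 and 213 CPM over the 7 tumours.

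Steroid synthesis and inactivation enzymes gave 0 called of 17 tested in edgeR, 4 at an unadjusted p under 0.05 and a median of -0.12. Hsd11b1, which regenerates active glucocorticoid in the cell, had 12.02 ± 7.62 CPM across the KP tumours (SD, n = 4) and 3.79 ± 1.53 CPM (SD, n = 3) in KPH2 2 to KPH2 4, a log2 fold change of -1.67 ± 0.77 (SE, adjusted p = 0.309, edgeR). That of Hsd11b1 was -0.42 with the muscle score as a covariate and -2.04 without KP 5, where it passed the threshold (adjusted p = 0.0382, edgeR). H6pd, which supplies this enzyme with NADPH, had 136 ± 22.4 and 78.1 ± 10.8 CPM, a log2 fold change of -0.81 ± 0.18 (SE). H6pd missed the threshold in edgeR (adjusted p = 0.0614) and was called by DESeq2 (adjusted p = 0.00463). DESeq2 also called Srd5a1 and Akr1c14, which act on progesterone and other steroids and were named after their values were seen. Srd5a1, a 5α-reductase, had 16.3 ± 8.06 CPM in KP and 46.8 ± 11.3 CPM in KPH2 2 to KPH2 4, with 20.4 CPM in KPH2 1. Akr1c14, a 3α-hydroxysteroid dehydrogenase, had 5.98 ± 4.79 and 0.822 ± 0.566 CPM, with 4.94 CPM in KPH2 1. In edgeR their adjusted p-values were 0.0706 and 0.0879, and the log2 fold change of Akr1c14 was -2.88 over the 7 tumours, -1.66 over all 8 and -4.03 with the muscle covariate. Without KP 8 Srd5a1 passed in edgeR (log2 fold change 1.88, adjusted p = 0.0278). Hsd11b2 was near the detection limit at 0.871 ± 0.329 and 0.877 ± 0.469 CPM, and Cyp19a1 (aromatase, the estrogen-forming enzyme) had 20 counts in all and was not tested. Hsd17b12 and Por had means of 89.3 and 75.4 CPM over the 7 tumours.

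Among the membrane progesterone and estrogen receptors and estrogen-related receptors, 0 of 8 tested were called in edgeR and 0 in DESeq2, with 2 at an unadjusted p under 0.05. Their median was 0.33. Gpr30 (the G protein-coupled estrogen receptor, Gper1) had a log2 fold change of 0.73 ± 0.34 (SE), Pgrmc1 of -0.57 ± 0.20 (SE) and the orphan receptor Esrra of 0.08 ± 0.25 (SE), none past the threshold (adjusted p = 0.314, 0.186 and 0.908, edgeR). Paqr8 and Pgrmc2 had means of 16.7 and 61.8 CPM over the 7 tumours.

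Of the glucocorticoid-induced genes, 1 of 26 tested rose and 0 fell in edgeR, with 5 at an unadjusted p under 0.05 and a median of 0.08. DESeq2 called 3, with Fbxo32 and Pdk4 higher and Cebpd lower in KPH2 2 to KPH2 4. In edgeR Pdk4, a kinase that restrains pyruvate oxidation, had an adjusted p of 0.0865, and it was named after its values were seen. The gene that rose was Fbxo32 (atrogin-1), a ubiquitin ligase of muscle atrophy. It went from 21.7 ± 5.47 CPM across the KP tumours (SD, n = 4) to 79.2 ± 11.2 CPM (SD, n = 3) in KPH2 2 to KPH2 4, a log2 fold change of 1.85 ± 0.22 (SE, adjusted p = 0.0148, edgeR). In KPH2 1, whose muscle marker sum was below that of every KP tumour, Fbxo32 stood at 21.9 CPM. The log2 fold change of Fbxo32 was 1.57 over all 8 tumours (adjusted p = 0.161, edgeR) and 1.51 with the muscle score as a covariate (adjusted p = 0.275, edgeR), a fit in which the genes called over the whole table went from 292 to 4. As the muscle sums of the groups did not overlap in the 7 tumours, that fit cannot fully separate muscle content from genotype. The part of muscle content in this result was not tested. The receptor's widely shared targets did not pass, with log2 fold changes of -0.55 ± 0.30 (SE) for Tsc22d3 (GILZ), -0.10 ± 0.53 (SE) for Per1, 0.39 ± 0.75 (SE) for Zbtb16 and 0.05 ± 0.21 (SE) for Klf9 (adjusted p = 0.392, 0.948, 0.843 and 0.933, edgeR). The Zbtb16 value ran from 0.044 without KP 6 to 0.96 without KP 7 and was 0.15 over all 8 tumours. Errfi1, Sgk1 and Glul had means of 485, 184 and 128 CPM over the 7 tumours.

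Estrogen-induced genes gave 1 that rose and 0 that fell of 21 tested, with 2 at an unadjusted p under 0.05, 1 called by DESeq2 and a median of -0.09. Rara, which encodes retinoic acid receptor α, rose from 25.8 ± 4.00 CPM (SD, n = 4) to 50.5 ± 9.92 CPM (SD, n = 3), a log2 fold change of 0.96 ± 0.19 (SE, adjusted p = 0.0490, edgeR). KPH2 1 had 23.3 CPM of Rara, within the KP values, and the adjusted p rose above 0.05 (0.0515 to 0.137) when any 1 of the 7 tumours was left out. The call on Rara was also lost over all 8 tumours (log2 fold change 0.75, adjusted p = 0.262) and with the muscle covariate (0.57, adjusted p = 0.709). Greb1, among the most direct estrogen targets, had 19.9 ± 14.7 and 40.1 ± 24.1 CPM, a log2 fold change of 0.99 ± 0.64 (SE, adjusted p = 0.472, edgeR), which was 0.40 without KPH2 4. Igf1 had a log2 fold change of -0.47 ± 0.26 (SE, adjusted p = 0.396, edgeR). Ccnd1, Ctsd and Igfbp4 had means of 812, 697 and 506 CPM over the 7 tumours.

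Progesterone-induced genes gave 0 that rose and 1 that fell of 19 tested in edgeR, with 7 at an unadjusted p under 0.05 and a median of -0.16. DESeq2 called 2, Gas6 as lower and Cdh1 as higher in KPH2 2 to KPH2 4. Cdh1, which is also on the epithelial marker list, had a log2 fold change of 2.37 and an adjusted p of 0.130 in edgeR. The gene that fell was Gas6, a ligand of the TAM receptor kinases, from 87.9 ± 15.6 CPM (SD, n = 4) to 47.3 ± 5.81 CPM (SD, n = 3), a log2 fold change of -0.91 ± 0.18 (SE, adjusted p = 0.0491, edgeR), with 36.5 CPM in KPH2 1. Leaving out any 1 of 6 tumours, KP 5 being the exception, took its adjusted p above 0.05, as did adding KPH2 1 (0.103), DESeq2 size factors in edgeR (0.0503) and the muscle covariate (0.510). The log2 fold change of Gas6 itself moved little, to -0.98, -0.91 and -0.92 under these and to between -0.99 and -0.80 with 1 tumour left out. Areg, an EGF receptor ligand induced by progesterone in the uterus and breast, had 2.95 ± 1.94 and 8.25 ± 2.89 CPM, and Tnfsf11 (RANKL) 4.56 ± 1.80 and 9.21 ± 4.11 CPM. Their log2 fold changes of 1.48 ± 0.73 (SE) and 1.01 ± 0.43 (SE) did not pass (adjusted p = 0.338 and 0.266, edgeR). Without KPH2 3, the tumour with the most Pgr, that of Tnfsf11 was 0.59 and that of Areg was 1.75. In KPH2 1, which had 1 count of Pgr, Tnfsf11 stood at 8.31 CPM. With the muscle covariate the log2 fold change of Areg was 2.47 (adjusted p = 0.694, edgeR), and Areg stood at 9.25 CPM in KPH2 1.

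Mineralocorticoid-induced genes gave 0 of 12 called in edgeR, with 1 at an unadjusted p under 0.05 and a median of -0.18. Scnn1a, a subunit of the epithelial sodium channel, had 0.787 ± 0.261 and 0.663 ± 0.256 CPM and did not pass the low-count filter. Atp1b1, a subunit of the sodium pump, was the 1 gene that DESeq2 called and was named for that reason. It was higher in KPH2 2 to KPH2 4, with a log2 fold change of 1.56 and an adjusted p of 0.115 in edgeR.

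**Figure D5:**
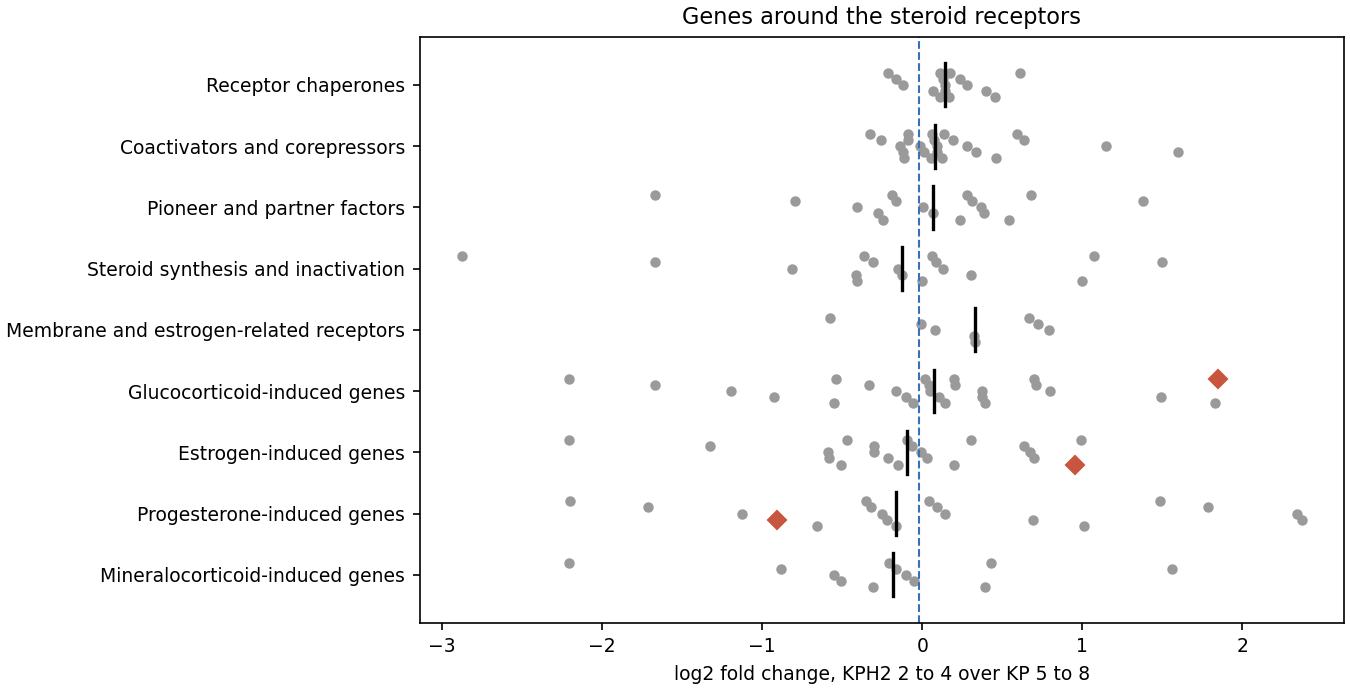
log2 fold change (KPH2 2 to KPH2 4 over KP 5 to KP 8) of each tested gene of the 9 pathway lists, with genes past an adjusted p of 0.05 as red diamonds, list medians as black bars and the median of all genes tested as a dashed line. The medians run from -0.18 to 0.33, and the red diamonds are Fbxo32 at 1.85, Rara at 0.96 and Gas6 at -0.91.

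The genes whose levels over the 8 tumours were most like each receptor were found by Pearson's r of log2 CPM among the 14805 genes that passed the filter over all 8. Every point is a whole tumour, differences between the groups enter r, and the genes were picked for it, so r is a description. For Pgr they were Itgb8 (integrin β8, r = 0.978), Spin1 (spindlin 1, a reader of histone marks, r = 0.973) and Vsig10 (r = 0.956). Itgb8 reached 15.8 CPM in KPH2 3 and 13.3 CPM in KPH2 4, against 5.25 to 7.55 CPM in the other 6 tumours. For Esr2 they were Prmt1 (an arginine methyltransferase that is also on the coactivator list, r = 0.978), Klf5 (a zinc finger factor, r = 0.973) and Cox7a1 (a cytochrome oxidase subunit of muscle and heart, r = 0.968). Klf5 had 1.26 to 2.62 CPM in KP, 4.00 CPM in KPH2 1, and 14.9, 5.72 and 9.34 CPM in KPH2 2 to KPH2 4.

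Esr1 had fewer close neighbours, 5 genes with r above 0.9 against 35 for Pgr, 66 for Esr2, 52 for Nr3c1 and 37 for Nr3c2. Its nearest were Ift80 (cilium transport, r = 0.932), Lace1 (r = 0.927) and Lmbrd1 (lysosomal cobalamin export, r = 0.912), and Ift80 shared the high values of KP 6 (64.1 CPM) and KPH2 2 (60.1 CPM). For Nr3c1 they were Mapre2 (a microtubule end-binding protein, r = 0.980), Atp8b4 (r = 0.959) and Dnmt3l (a cofactor of DNA methyltransferases, r = 0.958). Mapre2 had 53.4 to 61.7 CPM in KP, 49.99 CPM in KPH2 1 and 37.6 to 39.2 CPM in KPH2 2 to KPH2 4. For Nr3c2 they were Serpinb6b (r = 0.964), Fam32a (r = 0.955) and Kcnj10 (an inward rectifier potassium channel, r = 0.951), with Fam32a at its lowest, 32.6 CPM, in KPH2 1.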

How the data were processed

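RNA-seq was measured in 8 UPS tumours, 4 KP and 4 KPH2. The authors aligned reads to GRCm38 with STAR 2.4, counted them per RefSeq gene with htseq-count (HTSeq 0.6.1), and deposited raw, unnormalized counts for all 8 tumours. In 2 further tables, over 7 and over 8 tumours, the authors gave log2 values made with the rlog transformation of DESeq2 1.6, which shrinks genes with few counts toward their mean and so lowers the differences of Pgr and Esr2. All per-sample columns were used. Columns of comparisons between groups were not used.

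The count tests used edgeR 4.0.16 (R 4.3.3) with TMM scaling, its low-count filter (minimum count 10, minimum total 15), robust estimates and no covariates in a quasi-likelihood fit over KP 5 to KP 8 and KPH2 2 to KPH2 4. P-values were adjusted by Benjamini-Hochberg over every gene tested (threshold 0.05). CPM used TMM over all 8 libraries, and log2 CPM a prior count of 2. The biological coefficient of variation was 0.313 (7 tumours) and 0.347 (8 tumours). The closest pair of libraries within a group had a chi-square per degree of freedom of 28.3, so none was taken as a repeat of another. All were counted as separate samples, though this value cannot show whether 2 tumours came from the same mouse. Total counts were 6463221 to 13155510, which make 1 count worth 0.0747 to 0.146 CPM. P-values measure the spread between these tumours.

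Exon lengths came from GENCODE M21 transcripts paired with RefSeq accessions, as RefSeq exons were not used here. Promoters came from RefSeq (GRCm38.p6) and covered 4 of the 5 receptors, not Nr3c1. Of the pathway genes, Sts was not matched, and Ccn5 was counted once as Wisp2. The receptors, lists and named genes were chosen with earlier results of these data known. Named pathway genes are those called, the 3 of each list with the most CPM, which are given by level alone unless listed otherwise, and a set of well-known pathway genes. Nearest genes are the 3 with the highest r. An allele shared by both groups and 2 genes that this rule names are not reported here.

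The alternatives were all 8 tumours, DESeq2 size factors or upper-quartile scaling, no low-count filter, DESeq2 1.42.0, edgeR without robust estimates, a muscle score covariate, each tumour left out, and the authors' rlog values. The nearest genes without KPH2 1, and the settings applied to single pathway genes, were added after seeing the data.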

Additional observations from a re-analysis of the deposited data

Results flagged for a closer look

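In groups of 4 tumours, a value was set apart when its gap to the nearest other tumour divided by the range of its group exceeded Dixon's 95% critical value. This was met by 15 of 154 groups of values, where chance gives about 1 in 20 for independent, normally distributed values. These groups are not independent, since the nearest genes were picked for their likeness to a receptor. A single count in a group otherwise at 0, as for Foxa1, always exceeds the critical value. No excess over chance is read from the number.

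Among the receptors, Esr1 in KP 6 stood apart at 24.2 CPM, against 12.6 to 13.8 CPM in the other KP tumours. Nr3c1 stood apart in KP 8 at 319 CPM, against 256.5 to 265 CPM, and in KPH2 1 at 243 CPM, against 189.6 to 192 CPM. Of the genes nearest to them, Ift80 in KP 6 (64.1 CPM), Mapre2 in KPH2 1 (49.99 CPM) and Dnmt3l in KPH2 1 (1.80 CPM) were also high. Epas1 in KP 5 was low at 59.6 CPM, against 82.2 to 85.5 CPM in the other KP tumours.

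Among the pathway genes, Errfi1 in KPH2 2 (738 CPM) and Igfbp4 in KP 8 (824 CPM) were high, and Glul in KP 7 (109.7 CPM) and Nsd1 in KPH2 2 (490.2 CPM) were low. Foxa1 was counted once in KP 8 (0.0764 CPM) and once in KPH2 2 (0.0914 CPM), with 0 in the others. The endothelial marker sum of KPH2 1 (295 CPM) and the macrophage marker sum of KP 5 (2534 CPM) were low.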

How the results depend on the processing

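No paired analysis was possible because the groups share no replicate numbers. Of 14867 genes, 292 were called over the 7 tumours and 4 with the muscle score as a covariate. The muscle sums of KP and KPH2 did not overlap in these 7 tumours. No value with this covariate can therefore fully separate muscle content from genotype. The counts were 1 of 14805 over all 8 tumours, 1166 of 16733 by DESeq2, and 55 to 349 of 14554 to 15487 with 1 tumour left out (55 without KPH2 2, 73 without KP 7, 130 without KP 6 or KP 8, 153 without KPH2 4, 159 without KPH2 3 and 349 without KP 5). The 3 pathway genes called became 0 over all 8 tumours, 0 with the muscle covariate, 2 with DESeq2 size factors in edgeR, 12 by DESeq2 and 1 to 5 with 1 tumour left out (5 without KP 5, 2 without KP 8 and 1 without any other). Which of these shifts come from the few tumours, and which from KPH2 1 itself, was not tested. Epas1 kept its direction in every alternative. It passed the threshold in DESeq2 over the 7 tumours (-0.81, adjusted p = 0.0118) and over all 8 (-0.91, adjusted p = 0.00577). In edgeR it passed without KP 5 (adjusted p = 0.0442), and its log2 fold change was -0.96 to -0.71 with 1 tumour left out.

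The authors' rlog values over 7 and 8 tumours gave a difference of 1.45 and 1.59 for Pgr, 0.46 and 0.76 for Esr2, and -0.35 (both) for Nr3c1. With 1 tumour left out, the log2 difference was 3.38 to 5.10 for Pgr, 2.25 to 4.12 for Esr2, -0.26 to 0.22 for Esr1, -0.57 to -0.48 for Nr3c1 and 0.13 to 0.30 for Nr3c2. Esr1 was 0.28 with the muscle covariate. Pgr could not be fitted over all 8 tumours or without KP 6 with the filter on.

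Of 390 values for 28 named pathway genes, 339 kept direction and side of the threshold, 20 lost the call, 6 gained it and 25, in 9 genes, changed sign; the cause was not tested. With the muscle covariate the sign turned for Esrra (-0.53), Fkbp5 (-0.053), Hsd11b2 (-0.44), Per1 (0.57), Ptges3 (0.35) and Tsc22d3 (0.090), and over all 8 tumours for Gata3 (-0.077) and Hsd11b2 (-0.050). With 1 tumour left out the values ran from -0.021 to 0.24 for Esrra, -0.024 to 0.36 for Fkbp5, -0.032 to 0.66 for Gata3, -0.21 to 0.42 for Hsd11b2, -0.069 to 0.22 for Klf9, -0.33 to 0.069 for Ncoa1, -0.45 to 0.25 for Per1 and -0.29 to 0.053 for Ptges3. Without a change of sign, the muscle covariate gave -1.02 for Igf1, 1.14 for Nrip1 and 0.10 for Zbtb16, and leaving out 1 tumour -0.64 to -0.31 for Igf1 and -0.78 to -0.37 for Tsc22d3. Each r of a nearest gene without KPH2 1 was between 0.926 and 0.991. Depth limits Pgr and Esr2, which had 0 to 7 counts per KP tumour.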
